A study of Mus musculus with 8 samples.

Results

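Connexins and pannexins were followed as 9 genes of the whole adult mouse brain, Gja1, Gjb1, Gjb2, Gjb6, Gjc1, Gjc3, Gjd2, Panx1 and Panx2, chosen by their symbols from the 24343 genes of the deposited bulk RNA-seq table. Each of the 9 genes was found under its symbol. The data came from whole brains of 3 C57BL/6NCrl mice, 56 to 62 days old, under a single condition, and mice 1 and 2 gave 3 libraries each and mouse 3 gave 2. The labels do not say what separates the libraries of a mouse, so every SD is given between mice (n = 3) and every test compares these 3 mice only. No treatment, genotype or brain region was compared.

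Connexins are membrane proteins that assemble into hexameric hemichannels. Hemichannels of neighbouring cells dock to form gap junctions, through which ions, metabolites and second messengers pass. Astrocytes are coupled mainly through the products of Gja1 (Cx43) and Gjb6 (Cx30), and oligodendrocytes carry, among others, those of Gjb1 (Cx32) and Gjc3 (Cx29). The product of Gjd2 (Cx36) forms electrical synapses between neurons. Pannexins are built to a similar membrane plan but work mainly as single-membrane channels that release ATP and other small molecules.

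The coding sequence of Gja1, Gjb1, Gjb2, Gjb6 and Gjc1 lies in 1 exon each, whereas Gjc3 and Gjd2 have 2 coding exons, Panx2 has 3 and Panx1 has 5 (GENCODE M21, GRCm38). The encoded proteins range from 226 residues for Gjb2 to 677 for Panx2. Gjb2 (chromosome 14, 57098602 to 57104702) and Gjb6 (chromosome 14, 57123301 to 57133611) are neighbours, with 18598 bases between them on mm10, and both are on the minus strand. Gja3, a lens connexin gene, lies 40571 bases beyond Gjb2. Gjb1 is on chromosome X (101383732 to 101385629 for its main transcript). Xist was at 0.0246 FPKM or less in all 8 libraries and Ddx3y at 13.2 to 19.1 FPKM, so that the libraries did not differ in the presence of Y-linked RNA.

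Gjb1 has 4 annotated transcripts in the deposited table, each with a start of its own, and nearly all of its signal was assigned to the most downstream start. NM_001302497, which begins there, had 10.4 ± 2.10 FPKM (SD, n = 3 mice), and its share of Gjb1 was 98.9% or more in every library. NM_008124, whose start lies 6497 bases upstream, reached 0.0986 FPKM in library 1 of mouse 1 and stayed near 0 elsewhere. The remaining NM_001302496 and NM_001302498, with starts 7356 and 1614 bases upstream, were near 0 throughout. The 250 bases before the used start and before the start of NM_008124 are shown because nearly all of the signal was given to the former and, in a single library only, a little to the latter. They are RefSeq sequences on GRCm38.p6, plus strand, chrX:101383482-101383731 and chrX:101376985-101377234, and capitals mark the letters ACAAAG (the core bound by SOX factors) and TATAAA (the TATA box), searched on both strands.
Gjb1 at NM_001302497: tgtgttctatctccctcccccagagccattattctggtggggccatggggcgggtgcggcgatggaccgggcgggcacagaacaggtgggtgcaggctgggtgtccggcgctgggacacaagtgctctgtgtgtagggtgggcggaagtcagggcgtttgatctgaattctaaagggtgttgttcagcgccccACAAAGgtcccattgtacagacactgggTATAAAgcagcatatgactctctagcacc
Gjb1 at NM_008124: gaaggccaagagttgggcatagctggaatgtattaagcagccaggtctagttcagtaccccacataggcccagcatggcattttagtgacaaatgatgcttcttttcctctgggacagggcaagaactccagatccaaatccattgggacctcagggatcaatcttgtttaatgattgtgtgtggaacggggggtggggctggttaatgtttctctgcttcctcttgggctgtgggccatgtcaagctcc
The window of the used start held ACAAAG beginning 57 bases and TATAAA beginning 29 bases before the start, and that of NM_008124 held neither. Of the other upstream windows, that of NM_001302496 held ACAAAG beginning 176 bases before its start. Matches to ACAAAG were found in 16.5% and matches to TATAAA in 12.4% of 32851 promoter windows of the same length, so either match alone is common. The used window had 10 CG dinucleotides, against 1 for that of NM_008124 and a median of 6 over all windows. Windows were found for 7 of the 9 genes, and the highest count of CG dinucleotides among them was 33, for Gjd2.

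**Figure D1:**
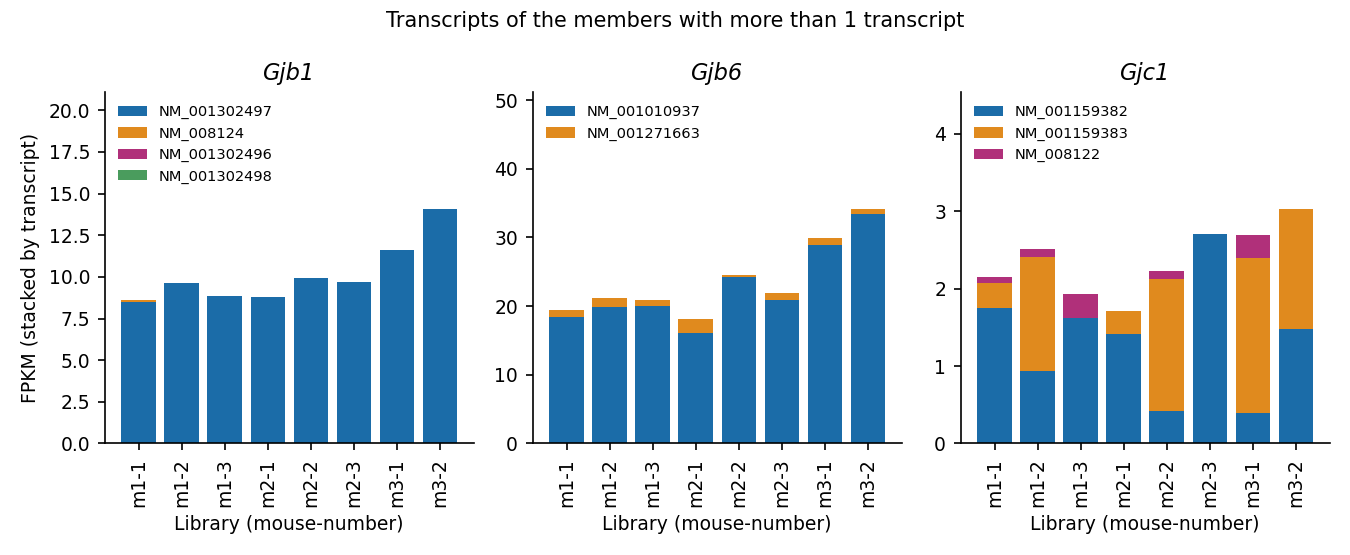
FPKM of each annotated transcript of Gjb1, Gjb6 and Gjc1 in the 8 libraries (x axis, mouse and library number), stacked so that the bar height is the FPKM of the gene. NM_001302497 made up at least 98.9% of Gjb1 and NM_001010937 at least 89.1% of Gjb6 in each library, whereas the leading transcript of Gjc1 changed from library to library.

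Gjb6 was also dominated by 1 of its 2 transcripts, which share their start: NM_001010937 had 23.7 ± 6.54 FPKM and NM_001271663 had 1.01 ± 0.146 FPKM. For Gjc1 the split between transcripts was unstable. NM_001159382 took between 14.5% and 99.98% of Gjc1 in single libraries and NM_001159383 between 0.0228% and 76.8%. Libraries 2 and 3 of mouse 2, from the same brain, had 0.414 and 2.71 FPKM of NM_001159382. The deposited confidence bounds of NM_001159382 spanned a median of 40.5% of its value on either side, so that for Gjc1 only the sum over its transcripts was used. Gja1, Gjb2, Gjc3, Gjd2, Panx1 and Panx2 have 1 transcript each in the table.

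Levels are given as FPKM, fragments scaled to transcript length and to the mapped fragments of the library, so that genes of different length can be compared. In bulk tissue, fewer cells of a type and less RNA per cell cannot be told apart. The libraries held 1.31 to 2.02 gigabases on transcripts, estimated from the deposited coverage. Both libraries of mouse 3 stood apart from the other 6 in 2 measures, with summed FPKM of 384885 and 409889 against 295541 to 345572, and with a deviation from the mean library that fell with transcript length (Spearman's rho across genes −0.363 and −0.574, against 0.182 to 0.502). Levels are therefore given per library, and differences of mouse 3 also as TPM, where the values of a library always add up to the same sum, and with the length trend removed.

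Gja1, encoding the main gap junction protein of astrocytes, was by far the highest of the 9 genes. It had 81.9, 78.8 and 78.8 FPKM in the libraries of mouse 1, 79.2, 73.6 and 81.9 FPKM in those of mouse 2, and 108 and 119 FPKM in those of mouse 3. The mean was 90.5 ± 19.9 FPKM (SD, n = 3 mice), rank 629 among the genes of the table, and both libraries of mouse 3 lay above the other 6. Gjb6, the second astrocytic connexin, had 19.4, 21.2 and 20.8 FPKM in mouse 1, 18.1, 24.5 and 21.9 FPKM in mouse 2, and 29.9 and 34.1 FPKM in mouse 3. Its mean of 24.7 ± 6.39 FPKM was 3.67-fold below that of Gja1, and the ranges of the 2 genes did not overlap. Gjb2 (Cx26), known from leptomeningeal cells and some astrocytes and as a deafness gene of the cochlea, was lower still at 4.96 ± 0.476 FPKM. Its libraries had 4.71, 5.07 and 4.41 FPKM in mouse 1, 4.72, 4.66 and 4.56 FPKM in mouse 2, and 6.49 and 4.53 FPKM in mouse 3, so that the only high value was in library 1 of mouse 3.

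Among the connexins of oligodendrocytes, Gjc3 had 18.7, 19.1 and 18.9 FPKM in mouse 1, 17.7, 18.4 and 19.8 FPKM in mouse 2, and 25.3 and 26.1 FPKM in mouse 3, with a mean of 21.1 ± 3.99 FPKM. Gjb1, mutated in X-linked Charcot-Marie-Tooth disease, had 8.60, 9.63 and 8.85 FPKM in mouse 1, 8.77, 9.91 and 9.71 FPKM in mouse 2, and 11.6 and 14.1 FPKM in mouse 3, with a mean of 10.4 ± 2.08 FPKM. Both genes were higher in each library of mouse 3 than in any other library. The ratio of Gjc3 to Gjb1 stayed between 1.86 and 2.18 over the 8 libraries, whereas that of Gja1 to Gjb6 ran from 3.00 to 4.38.

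Gjd2 and Gjc1 had the lowest levels. Gjd2, of electrical synapses, had 3.63, 3.60 and 3.76 FPKM in mouse 1, 2.45, 3.05 and 3.24 FPKM in mouse 2, and 2.21 and 3.12 FPKM in mouse 3, so that mouse 1 held the 3 highest values. Its mean was 3.08 ± 0.519 FPKM. The locus of Gjd2 (chromosome 2, 114009601 to 114013619) overlaps that of A530058N18Rik over 55 bases. The latter gene had 2.54 to 4.69 FPKM, so reads in the overlap may be divided uncertainly. Gjc1 (Cx45), found in neurons and in vascular muscle, had 2.15, 2.51 and 1.93 FPKM in mouse 1, 1.71, 2.22 and 2.71 FPKM in mouse 2, and 2.69 and 3.03 FPKM in mouse 3. Its mean was 2.42 ± 0.378 FPKM, and the range of mouse 2 overlapped those of mice 1 and 3, which did not overlap each other.

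The pannexins differed from each other. Panx2, a pannexin found mainly in the nervous system, had 23.9, 19.7 and 20.8 FPKM in mouse 1, 19.4, 23.5 and 22.6 FPKM in mouse 2, and 27.9 and 26.6 FPKM in mouse 3, and a mean of 23.5 ± 3.24 FPKM. Panx1, the widely expressed ATP-release channel, had 4.82, 5.62 and 5.23 FPKM in mouse 1, 5.43, 6.69 and 6.61 FPKM in mouse 2, and 5.39 and 5.93 FPKM in mouse 3, and a mean of 5.71 ± 0.511 FPKM. Panx2 was thus 3.42 to 5.18 times as high as Panx1 in single libraries. Panx3, known from skin and skeletal tissues, was listed at 0 in 7 libraries and at 0.0326 FPKM in library 1 of mouse 1.

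**Figure D2:**
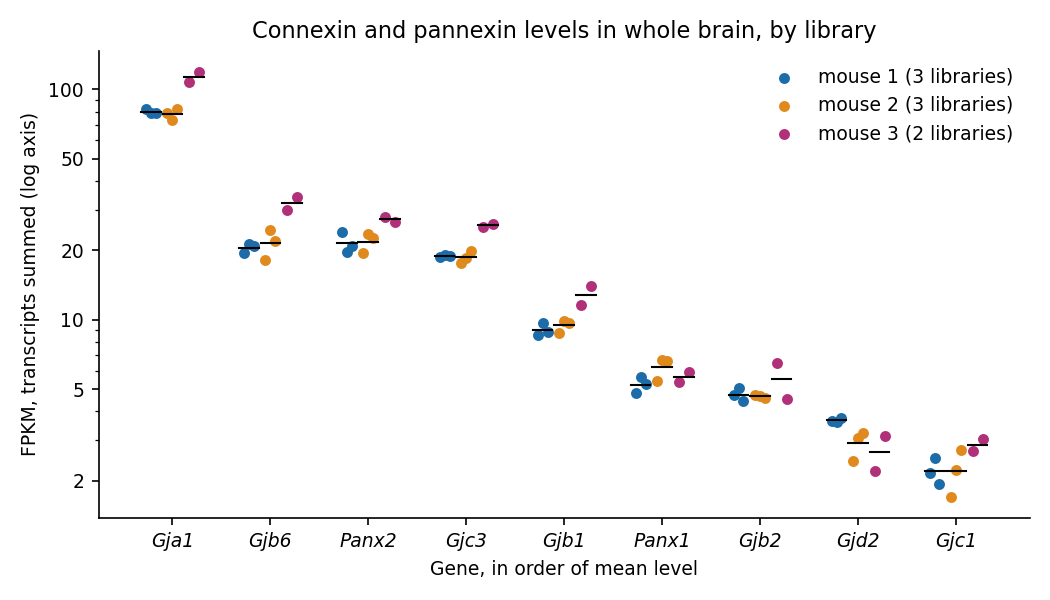
FPKM of the 9 genes (log axis) in each library, with genes in order of mean level, points coloured by mouse and short lines at the mean of each mouse. Gja1 lies above all other genes in every library, and both libraries of mouse 3 lie above the other 6 for Gja1, Gjb6, Panx2, Gjc3 and Gjb1.

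In order of mean level the genes ran Gja1, Gjb6, Panx2, Gjc3, Gjb1, Panx1, Gjb2, Gjd2 and Gjc1. Ranges over the 8 libraries did not overlap between Gja1 and Gjb6, between Gjc3 and Gjb1, between Gjb1 and Panx1, or between Gjb2 and Gjd2. Gjb6 exceeded Panx2 in 5 of 8 libraries, and their means differed by 1.14 FPKM against a combined SD of 7.16 FPKM, so these neighbours did not differ beyond their spread. Panx2 exceeded Gjc3 in 8 of 8 libraries, but by 2.44 FPKM against a combined SD of 5.14 FPKM. Panx1 exceeded Gjb2, and Gjd2 exceeded Gjc1, in 7 of 8 libraries each, with overlapping ranges and differences close to their combined SD.

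As a share of the summed FPKM of the 9 genes, which does not depend on the scaling of a library, Gja1 made up 48.4 ± 1.26%, Gjb6 13.1 ± 0.839%, Panx2 12.7 ± 0.634% and Gjc3 11.3 ± 0.0953% (SD, n = 3 mice). The share of Gjc3 stayed between 11.0% and 11.6% in all libraries. Gjb1 made up 5.59 ± 0.131%, Panx1 3.13 ± 0.640%, Gjb2 2.70 ± 0.231% and Gjc1 1.30 ± 0.0430%. The share of Gjd2 varied most for its size, with 2.16%, 2.18% and 2.30% in mouse 1, 1.55%, 1.83% and 1.87% in mouse 2, and 1.01% and 1.32% in mouse 3. It was therefore highest in mouse 1 and lowest in mouse 3. The share of Panx1 was also lowest in mouse 3, at 2.45% and 2.51%, against 2.87% to 4.01% in the other libraries. Together the 9 genes had 157 to 173 FPKM in the libraries of mice 1 and 2 and 220 and 236 FPKM in those of mouse 3.

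The rest of the family added little. The other 14 connexin and pannexin genes were all in the table, and their levels summed to 6.88 to 9.44 FPKM in the libraries of mice 1 and 2 and 8.49 to 9.36 FPKM in those of mouse 3. Gja4 (Cx37, an endothelial connexin) had 1.58 ± 0.230 FPKM, and 12 of the 14 had a mean below 1 FPKM. Gja5 (Cx40), of arterial endothelium, had 0.151 ± 0.0464 FPKM and was above 0 in every library. Gjd4 and Gja10 were listed at 0 in all 8 libraries, and Gja3, known from the lens, had a mean of 0.0391 FPKM. The epidermal connexin gene Gjb5 was above 0 in 1 of 8 libraries.

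Comparison of the mice found 4 of the 9 genes past the test, all of them glial connexins that were highest in mouse 3: Gja1, Gjb6, Gjc3 and Gjb1. The test was limma's moderated F-test over the 3 mice on log2(FPKM + 1), adjusted by the Benjamini-Hochberg method over the 13001 genes whose mean reached 1 FPKM, as that of each of the 9 genes did. Of all genes tested, 25.5% passed, 14.1% higher and 11.3% lower in mouse 3 than in the mean of the others, so a share of 4 in 9 (44.4%) stands beside wide differences across the transcriptome. Both libraries of mouse 3 lay above the other 6 for 5 of the 9 genes (the same 4 and Panx2), as they did for 26.5% of all genes tested, and below the other 6 for 0 of the 9, against 21.7%. With each library centred on its median gene, an alternative chosen after the data were seen, the same 4 genes passed, where 30.2% of all genes did and 16.0% were higher in mouse 3. Mouse 3 exceeded the mean of mice 1 and 2 by 0.52 ± 0.08 for Gja1 (SE, log2 scale, limma adjusted p = 0.0100) and by 0.59 ± 0.11 for Gjb6 (adjusted p = 0.0202). The differences were 0.43 ± 0.07 for Gjc3 (limma adjusted p = 0.0127) and 0.43 ± 0.09 for Gjb1 (adjusted p = 0.0285). Mouse 2 differed from mouse 1 by −0.03, 0.06, −0.02 and 0.06 in these genes, in each case less than its SE. For Gja1 and Gjc3, the lower confidence bounds of both mouse 3 libraries (at least 105 and 23.8 FPKM) lay above the upper bounds of all other libraries (at most 84.8 and 21.1 FPKM), which was not so for Gjb6 and Gjb1.

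The other 5 genes did not pass. Panx2 differed by 0.32 ± 0.10 (limma adjusted p = 0.0955), Gjc1 by 0.27 ± 0.12 (adjusted p = 0.255) and Gjb2 by 0.18 ± 0.11 (adjusted p = 0.448). Panx1 differed by −0.01 ± 0.10 in mouse 3 and by 0.22 ± 0.10 between mice 2 and 1 (limma adjusted p = 0.244). For Gjd2 the differences were −0.23 ± 0.11 in mouse 3 and −0.26 ± 0.11 between mice 2 and 1 (limma adjusted p = 0.114). The median difference of mouse 3 over the 9 genes was 0.32 on the log2 scale, against 0.02 over all genes tested.

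**Figure D3:**
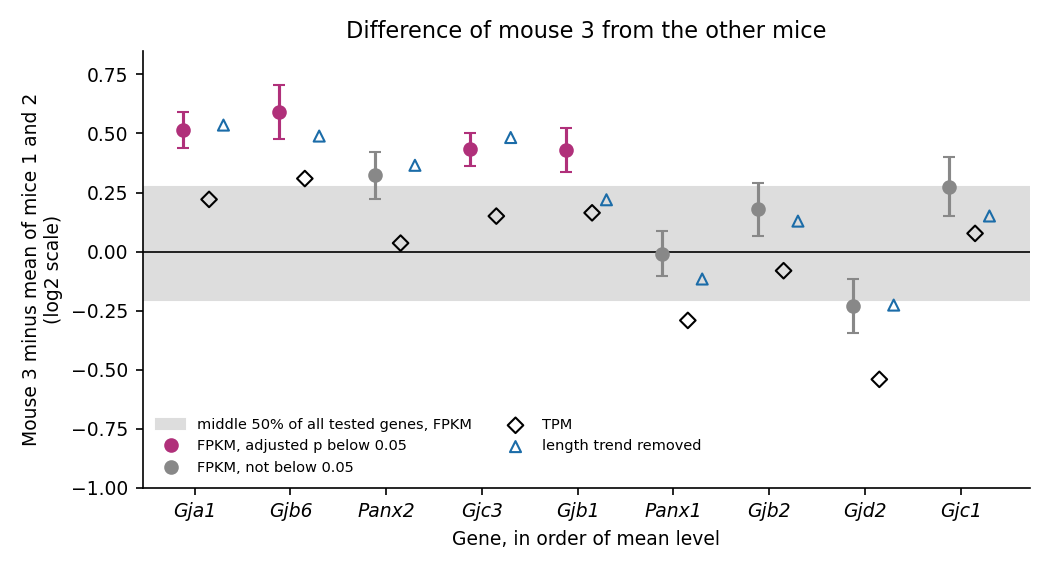
Difference of mouse 3 from the mean of mice 1 and 2 (y axis, log2 scale) for the 9 genes. Filled circles with SE bars are the FPKM values, coloured where the adjusted p was below 0.05, open diamonds are TPM, open triangles are values without the length trend, and the grey band holds the middle 50% of all tested genes (−0.20 to 0.27). Gja1, Gjb6, Panx2, Gjc3 and Gjb1 lie above the band with FPKM and Gjc1 lies at its upper edge, whereas with TPM all 9 values move down.

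These calls rested on the second library of mouse 3 and on the scaling. Without library 2 of mouse 3, 0 of the 9 genes passed limma's test (6 of 9 at an unadjusted p under 0.05), where 0.969% of all genes did and 0.662% were higher in mouse 3. Mouse 3 then has 1 library, which is assumed to vary like those of mice 1 and 2. Without library 1 of mouse 3, which leaves as few, these connexins passed, but more genes passed across the transcriptome than with all libraries. The differences of Gja1, Gjb6, Gjc3 and Gjb1 were 0.45, 0.50, 0.41 and 0.30 without library 2. They were 0.58, 0.68, 0.45 and 0.56 without library 1. TPM moved the median difference of all tested genes to −0.26, and 42.3% of genes passed, 5.52% higher and 36.7% lower in mouse 3. On that scale none of the 4 glial connexins passed (differences 0.22, 0.31, 0.15 and 0.16 for Gja1, Gjb6, Gjc3 and Gjb1, limma adjusted p = 0.226, 0.0506, 0.351 and 0.262). Relative to the TPM median, a step that largely undoes the TPM scaling, their differences were 0.48, 0.56, 0.41 and 0.42. These values were not tested. Gjd2 and Panx1 passed with TPM, with differences of −0.54 and −0.29 in mouse 3 (limma adjusted p = 0.00897 and 0.0216), or −0.28 and −0.04 relative to that median. With the length trend removed, when 20.3% of all genes passed and 10.9% were higher in mouse 3, the 4 glial connexins passed again (0.54, 0.49, 0.48 and 0.22, limma adjusted p = 0.00866, 0.0121, 0.00471 and 0.0489). Panx1 passed as well, with a difference of −0.12 in mouse 3 (limma adjusted p = 0.0255). These p-values are of the F-test over the 3 mice, not of mouse 3 alone. For Panx1 with FPKM, mice 2 and 1 differed by 0.22 ± 0.10, more than mouse 3 did from their mean (−0.01 ± 0.10). Its calls came with TPM and with the length trend removed, and the F-test does not tell which mouse made them.

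Marker lists were compared in the same way. Of 8 astrocyte markers (Aqp4, Slc1a2, Slc1a3, Aldh1l1, Gfap, Aldoc, Kcnj10 and S100b), 8 were higher in mouse 3 by limma's test, with a median difference of 0.65 on the log2 scale. Their summed level was 903 to 985 FPKM in the libraries of mice 1 and 2 and 1525 and 1633 FPKM in those of mouse 3. Aqp4, the water channel of astrocyte endfeet, differed by 0.45 ± 0.08 (limma adjusted p = 0.0148), and the glial filament gene Gfap by 1.03 ± 0.09 (adjusted p = 0.00510). Of the ratios of Gja1 to the 8 markers, 4 were lower in both libraries of mouse 3 than in the other 6 (those to Gfap, Aldoc, Kcnj10 and S100b), and the ranges overlapped for the other 4. The ratio to Gfap was 1.51, 1.44 and 1.03 in mice 1, 2 and 3, and that to Aqp4, the marker with the smallest difference, was 1.79, 1.68 and 1.81. Of 8 oligodendrocyte markers, 4 were higher in mouse 3, among them the myelin genes Mbp, by 1.27 ± 0.09, and Mobp, by 1.22 ± 0.10 (limma adjusted p = 0.00393 and 0.00495). The other 4 did not pass, among them Mog and Mag, and the median of the list was 0.41. All 8 oligodendrocyte markers together summed to 2221 to 2475 FPKM in mice 1 and 2 and to 4175 and 5098 FPKM in mouse 3. Mbp was the largest part of this sum, with means of 1288, 1322 and 3166 FPKM in mice 1, 2 and 3. The markers that did not pass differed by 0.39 (Mog), 0.25 (Mag), 0.05 (Cnp) and 0.17 (Cldn11).

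Of 8 neuron markers (Rbfox3, Snap25, Syt1, Tubb3, Slc17a7, Slc17a6, Gad1 and Gad2), 4 were lower in mouse 3 by limma's test (Rbfox3, Syt1, Gad1 and Gad2), 4 did not pass, and the median difference was −0.36. Their sum was 1937 to 2097 FPKM in mice 1 and 2 and 1663 and 1741 FPKM in mouse 3. Of 7 vascular markers 1 passed (Rgs5, 0.79 ± 0.10, limma adjusted p = 0.00699), and of 5 microglia markers 2 did (C1qa and Cx3cr1, both higher). Of 6 leptomeningeal fibroblast markers, cells known for Gjb2, and of 4 markers of oligodendrocyte precursors, 0 passed in limma (1 and 0 at an unadjusted p under 0.05). Over all 13001 genes tested, 5303 had an unadjusted p under 0.05 in the same test. The leptomeningeal markers summed to 26.0 to 30.5 FPKM in mice 1 and 2 and to 30.0 and 30.2 FPKM in mouse 3, and the vascular markers to 56.3 to 66.0 and to 85.4 and 99.6 FPKM. None of these markers was at 0 throughout. Of 6 markers of choroid plexus and ependyma 2 were higher (Foxj1 and Tmem212) and 1 lower (Kl), and of the 4 tested markers of blood and pituitary 1 was higher (Hbb-bt). Without library 2 of mouse 3, fewer of these markers passed, though Rgs5 still did. With TPM, 4 astrocyte, 3 oligodendrocyte and 1 vascular marker (Rgs5) were higher and 8 neuron markers lower. C1qa, Cx3cr1, Foxj1 and Tmem212 passed in neither of these settings, and Kl and Hbb-bt passed with TPM only. Over all genes tested, 5.52% were higher and 36.7% lower in mouse 3 with TPM. The part of these cell types, of depth or of the library's length trend in the connexin values was not tested.

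**Figure D4:**
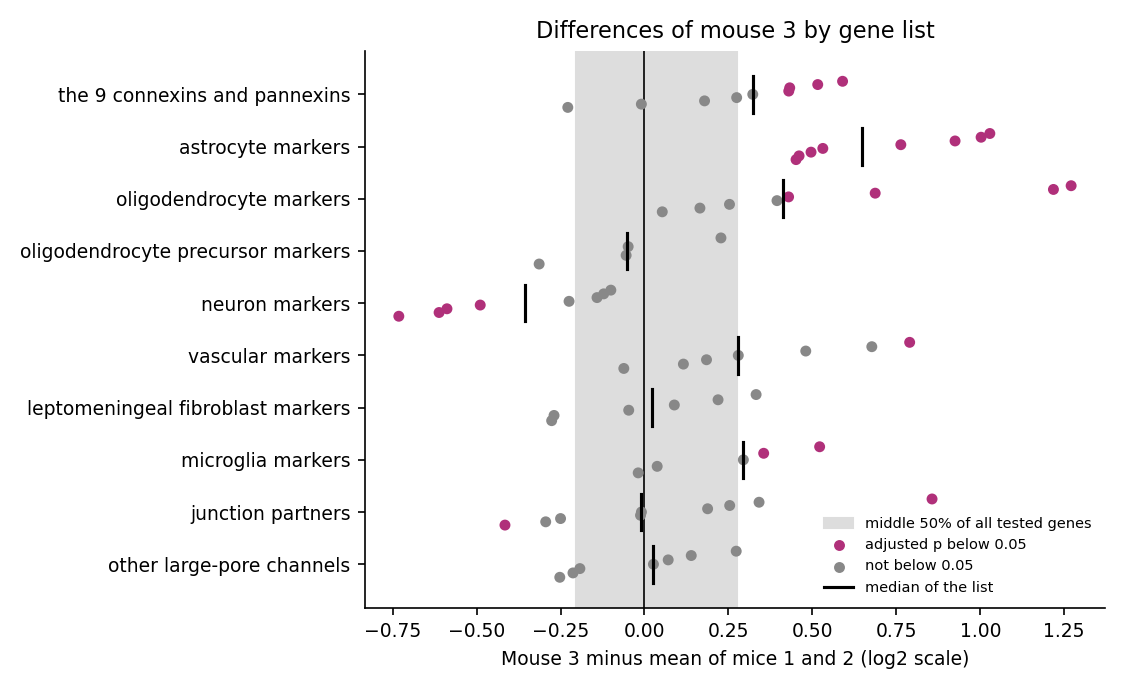
Difference of mouse 3 from the mean of mice 1 and 2 (x axis, log2 scale) for each tested gene of 10 lists (rows). Points are genes, coloured where the adjusted p was below 0.05, black lines are list medians and the grey band holds the middle 50% of all tested genes. All 8 astrocyte markers lie at 0.45 or above and all 8 neuron markers below 0, and the connexins and pannexins spread from −0.23 to 0.59.

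Of 9 genes whose products work with gap junctions, 1 was higher and 1 lower in mouse 3, beside 14.1% and 11.3% of all genes tested. Mlc1, an astrocyte membrane protein of the same endfoot contacts, was higher in mouse 3 by 0.86 ± 0.13 (limma adjusted p = 0.0109). Nedd4, a ubiquitin ligase that acts on the Gja1 product, differed by −0.42 ± 0.09 (adjusted p = 0.0306). The remaining 7 did not pass, among them the scaffold gene Tjp1 (ZO-1), at −0.01 ± 0.08, and Hepacam, at 0.34 ± 0.10 (limma adjusted p = 0.842 and 0.0760). The median over these partners was −0.01. With TPM, Mlc1 was higher and Nedd4, Dbn1 and Clcn2 were lower. Without library 2 of mouse 3, Mlc1 and Nedd4 no longer passed limma's test. Of the other 14 connexins and pannexins only 2 were high enough to be tested, and 0 of 2 passed limma's test (0 at an unadjusted p under 0.05). Of these, Gja4 differed by 0.16 ± 0.09 in mouse 3 (limma adjusted p = 0.135). Other large-pore channels, the Calhm and Lrrc8 genes and the ATP receptor gene P2rx7, had 7 of the 11 found genes tested and 0 past limma's test (1 at an unadjusted p under 0.05), with a median of 0.03. With TPM, 3 of these 7 were lower (Lrrc8b, Lrrc8c and Lrrc8d). Of all genes tested, 36.7% were lower and 5.52% higher in mouse 3 with TPM, and the TPM counts of the gap junction partners stand beside the same shares.

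Among all tested genes, those with the pattern most like each connexin or pannexin over the 8 libraries were listed by Pearson's r of log2(FPKM + 1), as a description. The libraries come from 3 mice and share their length trends, so that high values arise easily. The closest gene was Hspa13 for Gja1 (r = 0.995), Lsm1 for Gjb6 (0.997), Ttyh1 for Gjc3 (0.998) and Rps27l for Gjb1 (0.995). Adipor2, Mcfd2, Smad5 and Polr1c came next for these genes, with r between 0.994 and 0.995. For Gjb2 it was Gli3 (0.977) and then Rnu12 (0.947), for Gjd2 Cend1 (0.982) and Inpp5a (0.965), and the second closest gene for Gjc1 was Atpaf1 (0.973). Panx2 was most like Tatdn2 (0.972) and Ccdc109b (0.964). Panx1 had the least similar neighbours, Mettl8 (0.924) and Usp12 (0.883). Among the 9 genes themselves, Gja1 and Gjc3 were the most alike (0.972), followed by Gjb1 and Gjb6 (0.966), and Gjb2 and Gjd2 the least (−0.659).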

How the data were processed

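Whole-brain RNA was sequenced from 3 mice as 8 libraries, grouped by the mouse given in the labels. Per the labels, the authors mapped reads with TopHat and deposited FPKM values estimated with Cufflinks on mm10, with confidence bounds in FPKM, for 34535 transcripts in each library. Versions, strand setting and read length are not given in the sources used here. The deposited coverage is a signal of read depth per base, unscaled, and the number of reads behind a value is unknown, so no counting interval was computed. The authors' estimation divided reads between transcripts.

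FPKM values were summed over the transcripts of each gene and averaged per mouse and then over mice (pandas 2.3.3). Starts were shifted by 1 base to 1-based positions. Mice were compared with limma 3.58.1 in R 4.3.3 on log2(FPKM + 1) over genes whose mean reached 1 FPKM, with a threshold of 0.05 for the adjusted p. In data simulated for this comparison over 13001 genes, a log2 change of 1 in mouse 3 was recovered for 165 of 200 genes, with 10 false calls. A change of 0.5 was recovered for 0 of 200. Only these 200 genes were changed there, whereas 3310 genes passed in the data. The adjustment was therefore stricter in the simulation, and its rates do not give the power of the reported test. The members and lists were chosen with earlier results of these data known. Some genes of the lists and patterns are not reported here. Named genes were the 9 genes, the 13 lists (of 102 genes, 101 were found, 3 of them under an older symbol) and the 2 genes most alike in pattern. The sex-linked genes, ratios, overlapping genes, promoter windows and median centring were chosen after values were seen. The length trend was removed by lowess (statsmodels 0.14.6) of each library's deviation on log10 transcript length.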

Additional observations from a re-analysis of the deposited data

Results flagged for a closer look

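Of the 9 genes and their sum, only Gjb2 showed 1 library lying far from its other 7. Chance does this in about 1 in 20 groups of 8 independent values. That rate does not describe this search, because the libraries come from 3 mice and 10 measures were looked at. Gjb2 was at 6.49 FPKM in library 1 of mouse 3, and the nearest library, library 2 of mouse 1, was at 5.07 FPKM, a gap of 0.683 of the whole range.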

How the results depend on the processing

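The number of genes that differed between the mice was 3310 of 13001, 5493 with TPM, 2171 with the highest transcript of each gene, and 126 to 3873 with each library left out in turn (126 without library 2 of mouse 3, 1671 to 1909 without a library of mouse 1). Of the 9 genes, 4 passed, 2 with TPM, 5 without the length trend and 0 to 4 with a library left out. The 4 glial connexins also passed with a pseudocount of 0.1, no minimum level, a minimum of 5 FPKM, and a mean-variance trend with a robust prior. In these settings 2910 of 13001, 2709 of 19296, 3231 of 8786 and 3600 of 13001 genes passed. Gjb1 also missed the threshold when any 1 library of mouse 1 was left out (limma adjusted p from 0.0514 to 0.0693). TPM levels were 259 for Gja1, 70.1 for Gjb6, 67.6 for Panx2, 60.4 for Gjc3, 29.8 for Gjb1, 16.6 for Panx1, 14.4 for Gjb2, 9.0 for Gjd2 and 6.94 for Gjc1, in the same order as FPKM. With the highest transcript, Gjc1 was at 1.30 FPKM and its share was 0.732%, and that of Gjc3 was 11.5%. Differences of mouse 3 that changed sign did not pass the test in either of the settings compared. They were those of Gjb2 with TPM (−0.081) and with a library left out (−0.040 to 0.40, the former without library 1 of mouse 3), of Gjc1 with the highest transcript (−0.35), and of Panx1, which ran from −0.069 to 0.050 with a library left out. The library numbers were also fitted as a replicate block. Same-numbered libraries of different mice had correlations of 0.00276 to 0.107 in their deviations from the mouse means (7 pairs). Libraries of different number had −0.135 to 0.0645 (14 pairs), so that any pairing by number was weak but is not excluded. With the replicate block 2995 genes and the same 4 of the 9 passed, and Panx1 differed by 0.011. The cause of these changes was not tested. Depth limits Gjc1 most, with a summed coverage per base of 2.90 to 6.62.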
